A study of Homo sapiens with 9 samples.

Results

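The genes described here are 2 actin genes and 8 tubulin genes, ACTB, ACTG1, TUBA1A, TUBA1B, TUBA1C, TUBB, TUBB2A, TUBB2B, TUBB4B and TUBG1, which were taken by name from the 19820 protein-coding genes of the annotation. RNA polymerase II (RNAPII) had been mapped by chromatin immunoprecipitation and sequencing (ChIP-seq) in the human embryonic kidney line HEK293, to ask how polymerase is distributed when the level of the RNAPII-binding helicase RECQL5 is changed. In 3 of the 5 peak lists the cells carried a lentiviral short hairpin, either a control shRNA or one of the RECQL5 hairpins shRNA5 and shRNA7. In the other 2 lists the cells were HEK293 T-REx cells transfected with pcDNA4/TO-RECQL5, a plasmid with full-length RECQL5 behind a doxycycline-inducible promoter, and were given 0.0 or 1.0 ng/ml doxycycline. Both T-REx groups thus carried the plasmid, and neither received a hairpin. Knockdown and overproduction were judged by Western blot in the study, and peak lists give no check of them.

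There was 1 library per group, so no difference below has a replicate check, and no test or p-value is given. Tags are the sequenced reads inside a peak and were not normalised, and library totals were not analysed here. Values were compared only among the 3 hairpin lists or between the 2 doxycycline lists. The study reports similar read numbers for the samples it compared. Any difference in library depth between compared lists remains in the folds below. The lists held 5287, 23698, 32124, 47060 and 33900 peaks (control shRNA first, then shRNA5 and shRNA7, then T-REx cells without and with doxycycline), and the median peak held 48.2, 46.0, 45.9, 22.3 and 32.5 tags per kb. This order of the lists is kept in all sentences that give 5 values. Ranges after a fold are 95% Wilson intervals turned into odds, which cover counting error only.

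Actin filaments are polymers of a globular protein, and ACTB and ACTG1 encode its beta and gamma cytoplasmic forms, which nearly all cells make. Microtubules are polymers of dimers of alpha-tubulin (TUBA genes) and beta-tubulin (TUBB genes), and gamma-tubulin, encoded by TUBG1, sits in the ring complex from which microtubules grow. The actin genes are classical targets of serum response factor (SRF), which binds a promoter element called the CArG box. The actin, alpha-tubulin and beta-tubulin families have many near-identical copies in the genome, including processed pseudogenes, which are copies of spliced transcripts without introns.

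The stretches before the transcription start sites (TSSs) are shown because they are where RNAPII is loaded, and because they tell apart genes whose coding parts are almost the same. Each runs 5′ to 3′ on the strand of the gene over the 150 bases before the TSS of the representative transcript, in GRCh37. Capitals mark the CCAAT box, the CArG box and TATAAA, found on either strand. ACTG1 is taken from the minus strand at chr17:79479826-79479975, TUBA1B from the minus strand at chr12:49525179-49525328, TUBB2A from the minus strand at chr6:3157779-3157928 and TUBB4B from the plus strand at chr9:140135589-140135738.
ACTG1: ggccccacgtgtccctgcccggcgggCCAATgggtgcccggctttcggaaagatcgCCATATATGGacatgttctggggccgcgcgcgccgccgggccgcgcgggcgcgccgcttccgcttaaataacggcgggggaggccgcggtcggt
TUBA1B: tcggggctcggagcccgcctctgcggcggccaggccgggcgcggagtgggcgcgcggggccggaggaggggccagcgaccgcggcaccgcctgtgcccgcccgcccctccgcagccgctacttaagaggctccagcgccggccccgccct
TUBB2A: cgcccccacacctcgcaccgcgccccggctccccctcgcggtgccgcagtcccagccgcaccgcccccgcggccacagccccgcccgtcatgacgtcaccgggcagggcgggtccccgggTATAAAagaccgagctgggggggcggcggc
TUBB4B: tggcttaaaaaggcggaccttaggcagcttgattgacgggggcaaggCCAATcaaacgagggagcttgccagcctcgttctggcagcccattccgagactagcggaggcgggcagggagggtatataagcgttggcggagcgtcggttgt

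In 9 of the genes, ACTG1 and the 8 tubulin genes, motifs were searched over a window from 250 bases before to 50 bases after the TSS. A CArG box was found in ACTG1, beginning 94 bases before the TSS, and in no tubulin gene. Of 19797 promoters of that length, 1.21% held one. TATAAA was found in TUBB2A, beginning 30 bases before the TSS, against 9.72% of all promoters. Only these exact letters were searched, so a variant such as the tatataa in the TUBB4B stretch above was not counted. CCAAT, read on both strands, was found in 7 of the 9 genes, all but TUBA1B and TUBB2A, against 35.99% of all promoters. A match is only a run of letters and says nothing of the factor.

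In contrast to these stretches, the coding parts are alike within the actin, the alpha-tubulin and the beta-tubulin genes, to differing degrees. The coding sequences of ACTB and ACTG1 were 91.3% identical, those of TUBA1A and TUBA1B 97.2%, those of TUBA1B and TUBA1C 96.8% and those of TUBB2A and TUBB2B 98.2%. TUBB stood further off, at 84.6% identity to TUBB2A and 84.4% to TUBB4B. The runs of 36 bases below are shown because this is the length of the reads. The first lies on the minus strand in TUBB2A (chr6:3154177-3154212) and in TUBB2B (chr6:3225065-3225100) and is found 8 times in GRCh37. The second lies on the minus strand in ACTB (chr7:5567422-5567457), is found 14 times, and is in none of the other 9 genes.
TUBB2A and TUBB2B: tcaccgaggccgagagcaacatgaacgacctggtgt
ACTB: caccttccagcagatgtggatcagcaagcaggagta

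Runs of 36 coding bases found more than once made up 70.7% of those of TUBA1A, 83.5% of TUBA1B, 68.1% of TUBA1C, 86.4% of TUBB2A and 86.9% of TUBB2B. The share was lower in the actin genes, with 32.4% in ACTB and 20% in ACTG1, and in TUBB4B, with 21.2%. TUBB had 48.0% and TUBG1 50.9%. Runs found again in another of the 10 genes made up 69.4% in TUBA1A, 76.0% in TUBA1B and 68.0% in TUBA1C. They made up 80.3% in both TUBB2A and TUBB2B, but 9.04% in TUBB4B, 4.21% in both actin genes and 0% in TUBB and TUBG1. In the 250 bases upstream of the TSS no such run was repeated in 9 of the genes, and 1.395% were repeated in TUBA1C. A read from a repeated run can be placed at more than 1 position, and under the alignment option the study names it is reported at 1 of the best ones. Reads at the TSS itself can thus be told apart between the genes, while those over coding exons can mix copies, also inside the long TSS peaks that cover a whole gene.

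**Figure D1:**
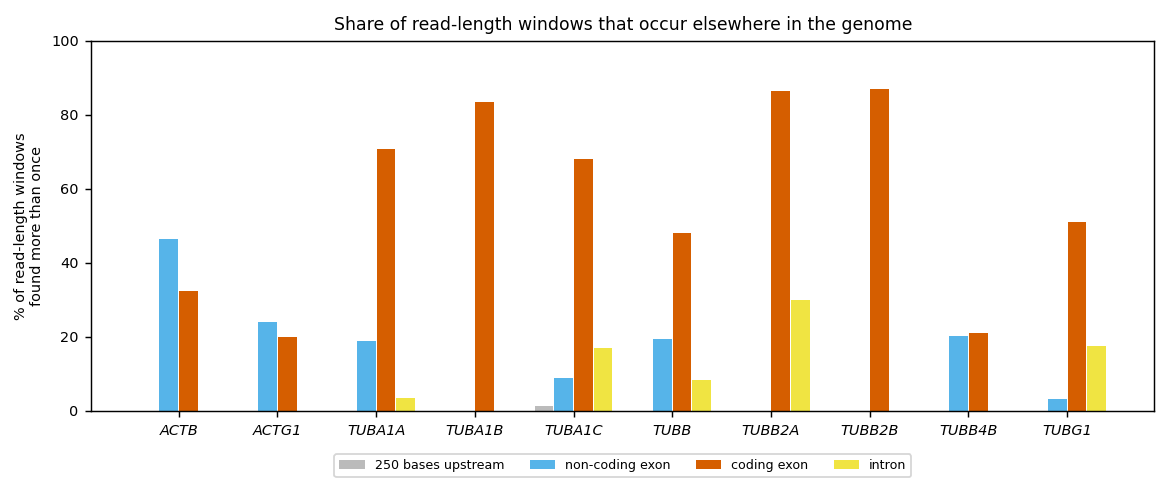
Share of the read-length windows of each gene, in percent, that are found more than once in GRCh37, by part of the representative transcript. Coding exons of TUBA1A, TUBA1B, TUBA1C, TUBB2A and TUBB2B reach 68.1 to 86.9%, while the upstream stretch has no bar in any gene but TUBA1C.

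RNAPII stood at nearly all of these genes in all lists. A TSS peak, defined as one that touches the 500 bp on either side of a TSS of a protein-coding transcript, was found in 8 of the 10 genes in the control list and in all 10 in each of the other 4. Among all protein-coding genes the shares were 17.3%, 44.5%, 52.8%, 57% and 48.2%. TUBB2A, a beta-tubulin gene, and TUBG1 were the genes without a control peak. The lists held 12, 16, 14, 27 and 23 distinct peaks over the gene spans widened by 500 bp, with 5035, 9508, 19491, 5954 and 5038 tags. Of these peaks 9, 11, 10, 14 and 14 lay at a TSS. Body peaks, which touch a protein-coding transcript past the first 500 bp and no TSS, numbered 3, 4, 3, 10 and 8. A peak downstream of the transcripts was seen once, at TUBG1 without doxycycline, with 13 tags. The remaining 0, 1, 1, 2 and 1 peaks lay where only non-coding transcripts of a gene are annotated. In each list 1 peak counted for 2 genes, as non-coding transcripts of TUBA1C begin inside the start region of TUBA1A.

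Per kb, the actin and tubulin TSS peaks were among the densest. The median over the genes with a TSS peak was 98.0, 115, 143, 94.5 and 99.4 tags per kb, against 52.1, 55.7, 63.5, 36.5 and 44.8 over all genes with one. Of the 8 genes with a control TSS peak, 5 lay above the 95th percentile of all genes (90.3 tags per kb), and 6, 6, 6 and 7 of 10 did so in the other lists. In the control list the order was ACTB, TUBA1C, ACTG1, TUBA1B, TUBB4B, TUBB, TUBA1A and TUBB2B. Exact Poisson intervals of neighbours overlapped throughout this order except between TUBB4B (88.1 to 106 tags per kb) and TUBB (72.3 to 82.5). Upon shRNA7 ACTB and TUBB4B stood first with overlapping intervals, and each of the next 4, TUBA1B, ACTG1, TUBA1C and TUBB, was below the one before it by more than the counting error. TUBG1 had the lowest value of the 10 in all 4 lists where it had a peak, but only with doxycycline was its interval clear of the next gene. Without doxycycline TUBA1B and TUBB4B stood first, and with it TUBA1C and TUBB4B did.

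**Figure D2:**
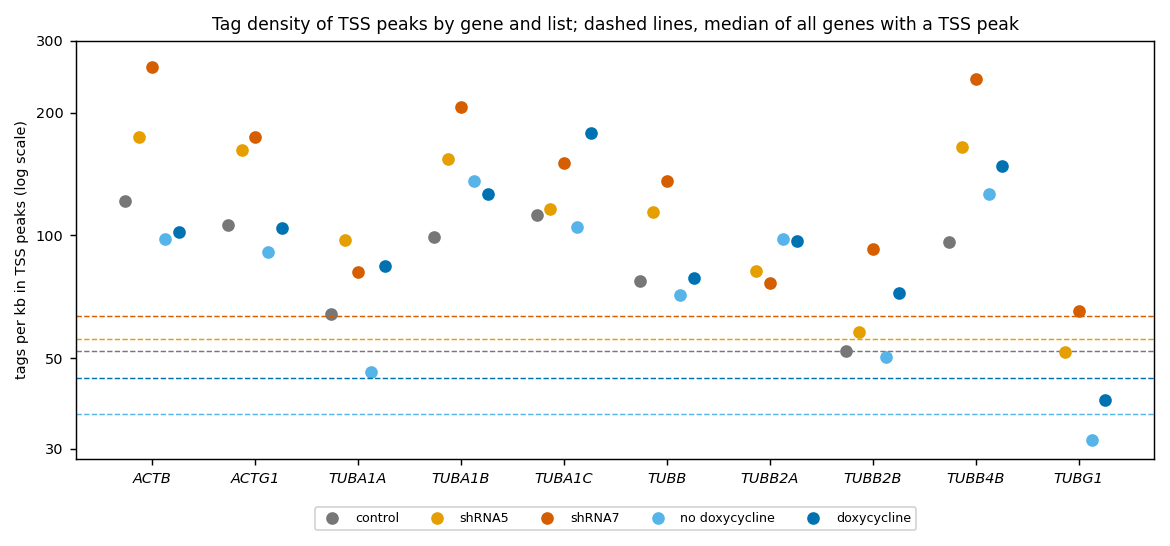
Tags per kb in the TSS peaks (log scale) of each gene, 1 point per list, with dashed lines at the median of all genes with a TSS peak in that list. ACTB, TUBA1B and TUBB4B are above 200 upon shRNA7, TUBG1 is the lowest in the 4 lists in which it has a point, and TUBB2A and TUBG1 have no control point.

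ACTB (chromosome 7, representative transcript from 5566779 to 5570232, minus strand) lay whole inside a single peak in the 3 hairpin lists and without doxycycline. Its TSS peaks held 121, 174, 258, 98.2 and 102 tags per kb. Both RECQL5 hairpins were thus above the control and differed from each other. The value was 1.43-fold higher upon shRNA5 than with the control hairpin (1.34 to 1.54), 2.13-fold higher upon shRNA7 (1.99 to 2.27) and 1.04 times as high with doxycycline as without (0.951 to 1.13). The peak ran past the end of the transcript by 6887, 7622, 8043 and 8753 bp in the first 4 lists. With doxycycline this stretch was held by a pair of adjacent peaks, the farther of which ended 4266 bp past the transcript and had its summit 494 bp past it. Peak summits, the position of the highest pileup, were 674, 1595 and 444 bp past the end of ACTB in the hairpin lists. In the T-REx cells those of the peaks over the TSS were 31 and 80 bp downstream of it. Smaller body peaks over long alternative transcripts had their summits 19545 to 25837 bp upstream, with 14 to 76 tags each. Without doxycycline a peak of 9 tags lay at the farthest TSS of ACTB, 33076 bp upstream.

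ACTG1 (chromosome 17, 79476997 to 79479825, minus strand) was also covered whole by a single peak, here in all 5 lists. Its TSS peaks had 106, 162, 174, 90.9 and 104 tags per kb. Both RECQL5 hairpins were above the control, 1.52-fold (1.39 to 1.67) and 1.64-fold (1.51 to 1.78), and doxycycline was 1.15-fold above no doxycycline (1.04 to 1.26). The control summit lay 44 bp past the TSS. Upon shRNA5 and shRNA7 it lay 2095 and 2097 bp beyond the end of the transcript. In the T-REx cells it was 48 and 33 bp past the TSS. The summed peak length was 6460, 9849, 24443, 9759 and 6954 bp. The 24443 bp upon shRNA7 was a single peak that reached 16035 bp upstream and also touched the TSS of FSCN2, a neighbouring gene that encodes an actin-bundling protein, so its tags cannot be split between the genes.

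**Figure D3:**
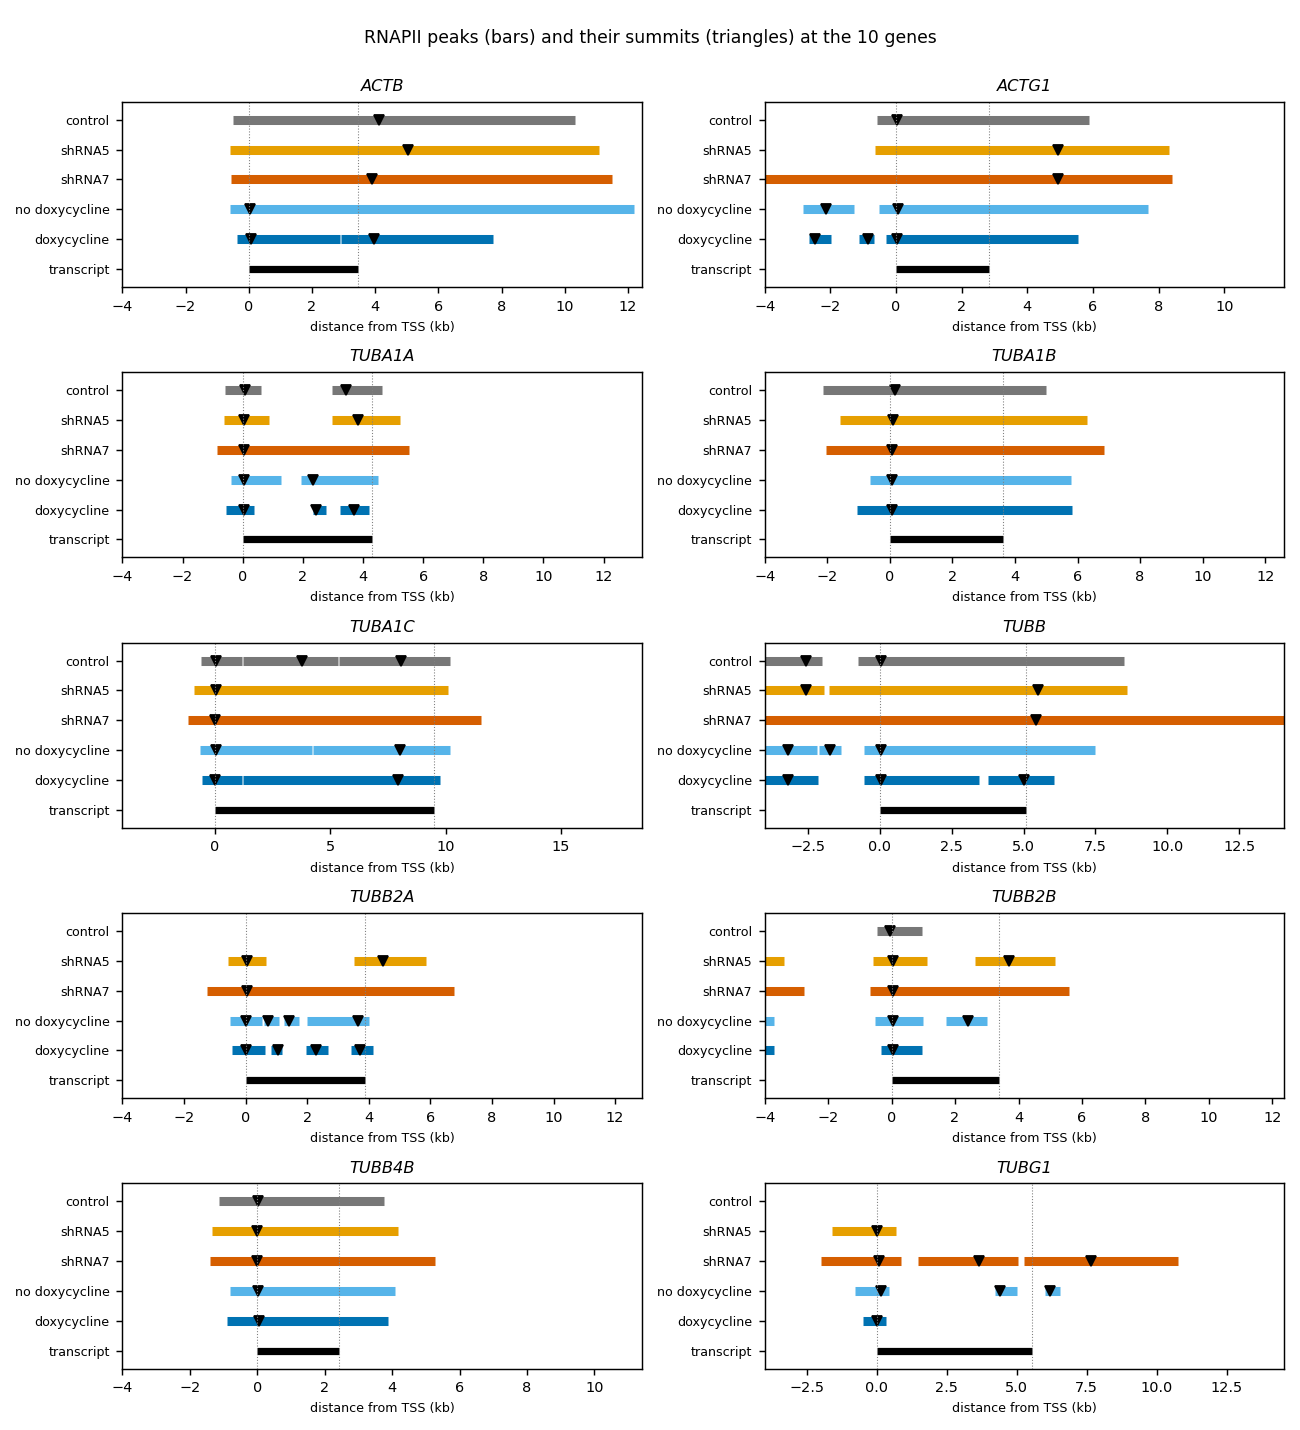
RNAPII peaks (bars) and their summits (triangles) in the 5 lists, by distance in kb from the TSS of the representative transcript, which is drawn in black in the direction of transcription. Peaks beyond the drawn range are cut off or left out. Summits of ACTG1 and TUBB lie at the TSS in the control list and past the transcript end upon shRNA5 and shRNA7, those of TUBA1B and TUBB4B stay at the TSS, and ACTB has its summit past the end in the hairpin lists.

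TUBA1B (chromosome 12, 49521565 to 49525178, minus strand) had the most regular pattern of the alpha-tubulin genes, with 1 peak over the whole transcript in every list. It held 99.3, 154, 206, 136 and 126 tags per kb. The hairpin lists differed by more than the counting error, at 1.55-fold (1.41 to 1.70) for shRNA5 and 2.07-fold (1.90 to 2.26) for shRNA7. With doxycycline the value was 0.928 times that without, with an interval that includes equality (0.845 to 1.02). The summits lay 174, 103, 76, 56 and 68 bp past the TSS. Peak length changed little, with 7148, 7898, 8885, 6430 and 6890 bp.

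At TUBA1C (chromosome 12, 49658865 to 49668383, plus strand) the lists differed mainly in how the region was divided. In the control list 3 adjacent peaks lay over the transcript, with 197, 205 and 334 tags, and upon shRNA5 and shRNA7 single peaks of 10986 and 12681 bp with 1275 and 1913 tags covered it. The TSS peaks had 113, 116, 151, 105 and 178 tags per kb. Read on these peaks, the folds were 1.03 (0.888 to 1.20) for shRNA5, 1.34 (1.16 to 1.55) for shRNA7 and 1.70 (1.48 to 1.96) for doxycycline. With peaks under 1 kb apart merged, they were 1.70, 2.21 and 1.00. The control and doxycycline TSS peaks ended within the gene (1751 and 1725 bp long), so that only the dense start was counted in them. The summits lay 34, 36, 19, 35 and 29 bp past the TSS.

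TUBA1A (chromosome 12, 49578578 to 49582863, minus strand), an alpha-tubulin gene known for its expression in neurons, had separate peaks at its start and over its later exons in all lists but shRNA7. The TSS peaks had 64.2, 97.3, 81.2, 46.2 and 84.3 tags per kb. The fold was 1.52 for shRNA5 (1.15 to 1.999), 1.27 for shRNA7 (0.995 to 1.61) and 1.83 for doxycycline (1.41 to 2.37). Without doxycycline a second peak, at an alternative TSS inside the gene, was counted in the value, and the start peak alone had 59.6 tags per kb. Upon shRNA7 a single peak of 6402 bp joined start and end. The second group of peaks had their summits in coding exons, and among the 36-base runs of the 200 bases around them 42.4% were repeated in the control list, 90.3% upon shRNA5, 74.5% without doxycycline and 82.4 and 69.1% at the 2 such peaks with it. At the summits near the representative TSS of TUBA1A none were. The part of misplaced reads in these body peaks was not tested.

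Among the beta-tubulin genes, TUBB (chromosome 6, 30688129 to 30693199, plus strand) had 77.3, 114, 136, 71.3 and 78.6 tags per kb in its TSS peaks. The folds were 1.47 (1.36 to 1.60), 1.76 (1.64 to 1.89) and 1.102 (0.982 to 1.24) for shRNA5, shRNA7 and doxycycline. Its peak over the transcript had its summit 51 bp past the TSS in the control list. The summit was 440 and 368 bp beyond the transcript end upon shRNA5 and shRNA7, and 42 and 41 bp past the TSS in the T-REx cells. In all lists but shRNA7 a further peak upstream touched an alternative TSS of TUBB, so that it is counted here, and also the TSS of MDC1, a gene of the DNA damage response. Upon shRNA7 both starts were inside 1 peak of 29685 bp. With doxycycline the transcript was not covered by a single peak, as a gap lay between a peak of 3989 bp at the start and one of 2299 bp at the end.

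TUBB4B (chromosome 9, 140135739 to 140138159, plus strand) was a single peak over the whole transcript in each list. It held 96.6, 164, 242, 126 and 148 tags per kb. The fold upon shRNA7, 2.51 (2.26 to 2.78), was the highest of the 8 genes compared, as was the 1.70 (1.52 to 1.90) upon shRNA5. With peaks under 1 kb apart merged, the first became 1.56, below 6 of the other 7 genes, and TUBA1C was highest at 2.21. With doxycycline it was 1.17 (1.05 to 1.30). All 5 summits lay within 46 bp of the TSS. The peak was 4895, 5521, 6676, 4899 and 4766 bp long, and it held 473, 908, 1616, 619 and 704 tags, so that upon both hairpins the tags differed from the control by a larger fold than the length.

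TUBB2A (chromosome 6, 3153900 to 3157778, minus strand) had no control peak, and its TSS peaks in the other lists had 81.8, 76.6, 98.1 and 96.8 tags per kb. The T-REx values differed by less than the counting error (fold 0.987, 0.752 to 1.30). No fold against the control can be given, since a region that was not called is not at 0. TUBB2B (chromosome 6, 3224511 to 3227887, minus strand), its close copy, had 52.0, 57.9, 92.5, 50.2 and 72.4 tags per kb. The folds were 1.11 (0.826 to 1.502), 1.78 (1.399 to 2.26) and 1.44 (1.06 to 1.95). After merging, the last was 2.39, with 72.4 against 30.3 tags per kb. Its summed length was 1443, 5511, 8172, 3491 and 1993 bp. A small peak at a non-coding start of TUBB2B, in all lists but the control, also touched the TSS of PSMG4, a proteasome assembly factor. The TUBB2B body peak without doxycycline had its summit where 100% of the 36-base runs are repeated, and the part of misplaced reads was not tested.

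TUBG1 (chromosome 17, 40761701 to 40767256, plus strand) had the lowest TSS tag density of the 10 wherever it had a peak. Only with doxycycline did it differ from the next gene by more than the counting error. It had no control peak, and its TSS peaks held 119, 187, 39 and 33 tags in the other lists, or 51.8, 65.4, 31.5 and 39.5 tags per kb. All 4 also touched the TSS of the neighbour RETREG3, a gene for a receptor in the turnover of endoplasmic reticulum. Body peaks with 214 and 424 tags were found upon shRNA7 and one with 23 tags without doxycycline. The peak of 424 tags covered 5.06% of the transcript, had its summit 2093 bp past the end and reached 5187 bp past it. The fold with doxycycline was 1.25 with a wide interval (0.792 to 1.99).

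Folds of TSS density for all genes are over those with a TSS peak in both lists compared. These were 3396 genes for shRNA5, 3211 for shRNA7 and 9319 for doxycycline, where 3420 genes had a control TSS peak. Across the 10 genes, TSS tag density upon RECQL5 knockdown was above the control in all 8 that could be compared, with either hairpin. The same held for 94.2% of all genes compared upon shRNA5 and for 97.1% upon shRNA7. TSS density was at least 1.5-fold higher in 4 of 8 upon shRNA5 and in 6 of 8 upon shRNA7, and at least 1.5-fold lower in none. Among all genes, 20.8% were that much higher and 0.0294% that much lower upon shRNA5, and 55.7% and 0.0623% upon shRNA7. The median fold was 1.495 over the 8 genes and 1.33 over all genes upon shRNA5, and 1.77 and 1.55 upon shRNA7. For all genes whose transcript lay whole inside a control peak, the medians were 1.43 upon shRNA5 (228 genes) and 1.84 upon shRNA7 (223 genes). The 5 of the 8 genes that were of this kind had medians of 1.52 and 2.07. With doxycycline 2 of 10 genes, TUBA1A and TUBA1C, were at least 1.5-fold higher and none lower, against 11.7% and 1.02% of all genes. Which genes pass depends on how the peaks were divided. With peaks under 1 kb apart merged they were TUBA1A (2.11) and TUBB2B (2.39), and TUBA1C was at 1.00. In these merged values the start peaks of TUBA1A and TUBB2B without doxycycline took in sparser neighbours, giving 39.9 and 30.3 tags per kb. Their start peaks with doxycycline took in none. Unmerged, the start peak of TUBA1A alone had 84.3 tags per kb with doxycycline and 59.6 without. The median fold was 1.16, beside 1.14 for all genes. With each density divided by the median of its list, it became 0.944, so the direction with doxycycline changes with the scale. These list medians are over unlike sets of genes, 11290 without doxycycline and 9555 with it. On the same scale the median fold was 1.397 upon shRNA5 and 1.45 upon shRNA7. The gap between the RECQL5 hairpins was thus narrower than in raw tags per kb, where the medians were 1.495 and 1.77.

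Summed peak length upon the hairpins, in contrast, differed from the control by a smaller median fold than in all genes. It was longer in all 8 genes with either hairpin, as in 97.2% and 98.7% of all genes upon shRNA5 and shRNA7, at a median of 1.20-fold upon shRNA5 and 1.92-fold upon shRNA7, beside medians of 2.60 and 4.78 over all genes. It was at least 1.5-fold longer in 2 of 8 genes upon shRNA5 (TUBB2B and ACTG1) and in 5 of 8 upon shRNA7, against 77.2% and 90.4% of all genes, and at least 1.5-fold shorter in none, against 0.226% and 0.516%. The genes whose transcript already lay whole inside a control peak had small folds in general, with medians of 1.23 upon shRNA5 (228 genes) and 1.97 upon shRNA7 (223 genes), and 5 of the 8 genes were of this kind, with medians of 1.13 and 1.36. With doxycycline peaks were shorter in 9 of 10 genes, where 28.9% of all genes had longer ones, at a median of 0.712 beside 0.787 for all genes. Peaks were at least 1.5-fold shorter in 4 of 10, ACTB, TUBA1A, TUBB2B and TUBG1, against 37.5% of all genes, and at least 1.5-fold longer in none, against 7.96%. TUBA1B, at 1.07, was the only one of the 10 above 1. For summed length, all genes are those with a peak in both lists compared, 4425 for shRNA5, 4262 for shRNA7 and 10381 for doxycycline.

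**Figure D4:**
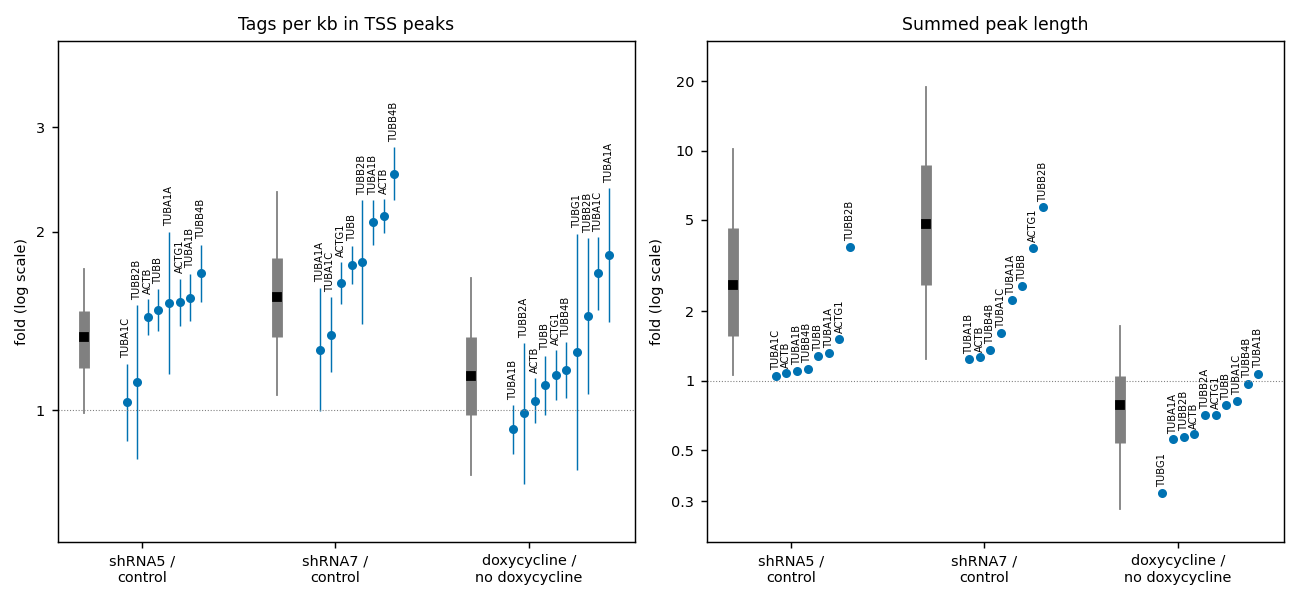
Fold (log scale) of tags per kb in TSS peaks, left, and of summed peak length, right, for each comparison. Blue points are the genes, with counting intervals on the left, and the grey bar and line give the middle 50% and the 5th to 95th percentile of all genes with the median as a black square. All genes are those with a TSS peak (left) or any peak (right) in both lists compared. Gene points sit at or above the median of all genes in most cases on the left for the hairpins, and mostly below it on the right.

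Whole representative transcripts inside a single peak were found in 5, 6, 9, 5 and 3 of the 10 genes, and in 229, 536, 1045, 280 and 253 of all 19820 genes. The actin and tubulin transcripts are short, at 2421 to 9519 bp, with 22453 bp the median of all genes. The 5 in the control list were ACTB, ACTG1, TUBA1B, TUBB and TUBB4B. In these peaks the summit lay past the transcript end in 1, 3, 3, 0 and 0 of the genes, against 11.4%, 19.6%, 27.8%, 7.14% and 5.93% of all transcripts inside a single peak. The 3 were the same upon shRNA5 and shRNA7, namely ACTB, ACTG1 and TUBB.

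Body peaks and TSS peaks were set beside the repeated sequence. At 13 of the 28 body peaks of the 5 lists, at least 25% of the 36-base runs in the 200 bases around the summit were repeated, and in 10 of the 13 the summit was in a coding exon. Of the 58 TSS peaks this was so for 1, the TUBA1A peak at an alternative start. Pseudogenes of the actin and tubulin families, 65 in the annotation and 63 of them processed, carried a peak in 0, 2, 6, 5 and 3 cases. TUBAP2, a processed alpha-tubulin pseudogene on chromosome 11 (90015728 to 90017340), had a peak with its summit inside in all lists but the control, with 39, 58, 37 and 22 tags. In TUBAP2 31.6% of the 36-base runs were found again in one of the 10 genes. TUBB2BP1, on chromosome 6 between TUBB2A and TUBB2B, had 2 peaks with 36 tags in all without doxycycline and none elsewhere. Whether these tags came from the pseudogenes or from the genes was not tested.

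Genes that act with actin and tubulin were taken as 67 further genes in 7 lists. A TSS peak was found in 25, 49, 51, 57 and 55 of them. The 4 other actin genes, for muscle forms, and the 12 other tubulin genes had none in the control list. The tubulin and actin folding genes, which include the subunits of the TCP1 chaperonin and prefoldin, had a control TSS peak in 15 of 20. Over the 67, TSS density was at least 1.5-fold higher in 4 of 24 genes compared upon shRNA5, in 13 of 20 upon shRNA7 and in 4 of 54 with doxycycline, and at least 1.5-fold lower in none, with medians of 1.32, 1.61 and 1.12. Of the 25 genes with a control TSS peak, only 24 and 20 had one upon shRNA5 and shRNA7. The rest could not be compared and are not counted as lower. Among all genes 20.8%, 55.7% and 11.7% were that much higher, and 0.0294%, 0.0623% and 1.02% that much lower. Summed length was at least 1.5-fold longer in 21 of 28 and 25 of 26 upon shRNA5 and shRNA7, with medians of 2.91 and 5.34, and 4 of 56 were longer and 20 shorter with doxycycline. It was at least 1.5-fold shorter in 1 gene upon shRNA5 and in none upon shRNA7. Genes with no peak in one of the lists compared have no length fold and are left out of these counts. Among all genes 77.2% and 90.4% were longer upon shRNA5 and shRNA7, and with doxycycline 7.96% were longer and 37.5% shorter. The length folds of the 67 were thus closer to those of all genes than were those of the actin and tubulin genes.

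PFN1, which encodes the actin monomer binding protein profilin, had 736, 1504, 3008, 468 and 559 tags in TSS peaks and is named, like TCP1 and TUBGCP6, for its raw tags summed over the 5 lists, a sum that mixes the arms. It was 1.65-fold longer upon shRNA7 and 2.47-fold denser at the TSS. TCP1, a chaperonin subunit, had 219, 1565, 3015, 126 and 109 tags in TSS peaks. In the control list it had 3 peaks with 806 tags in all, only 1 of them at the TSS. Upon shRNA5 and shRNA7 it had single peaks of 17971 and 30975 bp, with TSS densities 1.34 and 1.496 times the control. TUBGCP6, a partner of TUBG1 in the ring complex, had 73, 938, 3430, 112 and 130, and its summed length was 11.7-fold greater upon shRNA7. Its TSS density was 1.38-fold the control upon shRNA5 and 2.34-fold upon shRNA7. Among the related genes with a TSS peak both in the control list and upon shRNA7, the largest length folds upon shRNA7 were those of ACTR3, a subunit of the Arp2/3 complex that nucleates actin branches, at 21.6-fold, and of PFDN1, a prefoldin subunit, at 19.5-fold. In the control list each had peaks of only 1140 and 1235 bp in all, with 72 and 63 tags at the TSS, and their TSS densities were 1.12 and 1.56 times the control.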

How the data were processed

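The authors cross-linked cells with formaldehyde, sheared the chromatin and immunoprecipitated RNAPII. Per the labels, CASAVA 1.8, Bowtie 0.12.7 and MACS 1.4.2 were used on hg19 (GRCh37). Reads were 36 bases. Peaks were called per library against IgG, each hairpin list against its own and both doxycycline lists against 1 untreated library. The deposited tag counts per peak are raw counts. The score deposited with each peak is −10 times log10 of its p-value. The deposited fold enrichment is a ratio over local background, and the deposited FDR is a percent.

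Genes, TSSs and pseudogenes came from GENCODE release 44 lifted to GRCh37. Peaks touching a gene span widened by 500 bp were counted. The class of a peak was TSS, body, downstream or other, in that order. A fold of 1.5 was called. Representative transcripts, sequence windows and promoters were read from GRCh37 (Python 3.11.15, numpy 2.4.6, pandas 2.3.3, Biopython 1.88, matplotlib 3.10.9), and the counting was tested on simulated data. The sequences printed are reference sequence and not reads. All 10 genes are named, with neighbours whose TSS a peak touched. Of the 67 related genes, the 3 with most TSS tags and the 3 with the largest length change upon shRNA7, among those with a TSS peak in the control and shRNA7 lists, are named. The genes and lists were chosen with earlier results of these data known. Some sequences are not reported here.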

Additional observations from a re-analysis of the deposited data

How the results depend on the processing

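No replicate could be left out, as every group is 1 library. No paired analysis was possible because the groups hold 1 library each and nothing was tested. Of 240 values recomputed for 26 results, 216 were unchanged, 23 moved and 1 reversed. A count was taken as unchanged within 1.5 times and a median fold within 1.1 times. The number of genes with a TSS peak stayed within 1.5 times in every alternative run, but it did fall in the hairpin lists. In the control list 8 genes became 6 with a significance score of at least 100. With 50% of the peak required inside the span they became 7, upon shRNA5 9 (from 10) and upon shRNA7 7 (from 10). A fold enrichment of at least 10 left 9 genes upon shRNA5 and 9 upon shRNA7. Both T-REx lists kept 10 throughout. Body peaks in the control list became 1 (from 3) with a significance score of at least 100, with a fold enrichment of at least 10 and with peaks under 1 kb apart merged. Upon shRNA5 they became 2 with the score filter and 0 with the enrichment filter, and upon shRNA7 0 with the enrichment filter and 1 after merging. Without doxycycline they became 6 with the score filter and 4 after merging, and with doxycycline 4 with the score filter, 3 with the enrichment filter and 2 after merging. The median length fold upon shRNA7 was 2.52 with the enrichment filter, 2.37 after merging and 1.25 over bases inside the widened spans alone. With doxycycline it was 0.630 with the score filter, 0.560 with the enrichment filter and 0.817 inside the spans. Divided by the list median, TSS density was 1.397-fold upon shRNA5, which counts as unchanged, and 1.45-fold upon shRNA7. With doxycycline it was 0.944-fold, which reversed it. Each list median is over the genes with a TSS peak in that list, and these sets differ (3420, 8812, 10466, 11290 and 9555 genes). Over all genes with a TSS peak in both lists compared, the median folds were 1.33 for shRNA5, 1.55 for shRNA7 and 1.14 for doxycycline. The cause of the moves was not tested. An FDR of at most 5%, a TSS window of 1 kb, the representative TSS alone and, chosen after seeing the data, the span of the representative transcript moved none of these. The single downstream peak, without doxycycline, was lost with the score filter, after merging, with spans not widened and with 50% of the peak required inside the span. Counting error at TUBG1 rests on 33 to 187 tags at its TSS.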
